A study of Mus musculus with 17 samples.

Results

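The glutathione transferases and glutathione peroxidases were examined in the kidney cortex of mice. They were taken as every protein-coding gene of the count table whose symbol is Gst followed by a class letter (a, k, m, o, p, t or z) and a number, Mgst1 to Mgst3 or Gpx1 to Gpx8. This rule found 33 genes among 48795 genes in the table, of which 21637 were protein-coding. There were 25 transferases (4 of alpha class, 7 mu, 1 kappa, 2 omega, 3 pi, 4 theta, 1 zeta and 3 microsomal) and 8 peroxidases. The rule used names only and no measured value.

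Poly(A) RNA was sequenced from 17 cortices. The 5 WT cortices came from wild-type mice. The 5 GCERAd cortices (ATF4 KO in the labels) came from mice with homozygous floxed ATF4 alleles and a homozygous transgene in which part of the Ggt1 promoter, active in proximal tubules, drives CreER. These mice were given tamoxifen on 2 consecutive days at 6 weeks of age, and the study's methods place the collection about a month later, after a fast of 16 h. The 3 TRACK cortices came from TRAnsgenic model of Cancer of the Kidney mice, and the 4 GCERAdT cortices from mice labelled TRACK-ATF4 KO. For TRACK and GCERAdT mice the age, tamoxifen and fasting were not given in the sources used here, nor was the Cre of the GCERAdT mice. For WT mice no tamoxifen was mentioned and no age was given. The study's methods describe the fast, in metabolic cages, without naming groups, and its kidney function measurements in such cages included WT mice. Strain and sex were not given for any group.

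Glutathione transferases join glutathione, the main small thiol of the cell, to reactive electrophiles such as lipid aldehydes and xenobiotics, and several of them also reduce lipid hydroperoxides. The conjugates are trimmed by gamma-glutamyltransferase and dipeptidases and acetylated to mercapturates, steps for which the proximal tubule is a main site. Glutathione peroxidases spend glutathione to reduce peroxides; Gpx1 to Gpx4 of the mouse do so with selenocysteine, which is read from a UGA codon, and the other family members carry cysteine there. The kidney is the main source of Gpx3, the peroxidase of blood plasma. ATF4 is a transcription factor of the amino acid and oxidative stress response.

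The codon of the active site is shown because it sets apart the members that need selenium. Each stretch below is coding sequence of the reference transcripts of GENCODE M21 (GRCm38), 5′ to 3′, with the selenocysteine or cysteine codon in capitals and 4 codons on either side.
Gpx1: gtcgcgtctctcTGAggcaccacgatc
Gpx2: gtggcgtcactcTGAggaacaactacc
Gpx3: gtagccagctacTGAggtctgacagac
Gpx4: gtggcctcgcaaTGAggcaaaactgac
Gpx5: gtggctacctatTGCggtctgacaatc
Gpx6: gtggcatccttcTGTggcctgacagct
Gpx7: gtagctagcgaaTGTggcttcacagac
Gpx8: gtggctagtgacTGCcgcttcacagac
The codon is TGA in the 4 selenocysteine members, where the annotation marks it, and TGC or TGT in the other 4. In the 4 peroxidases of highest level here (Gpx3, Gpx1, Gpx4 and Gpx6) it lies on chromosomes 11, 9, 10 and 13 at codons 73, 47, 129 and 73 of their coding sequences. These codon numbers hold for the transcript taken, which for Gpx4 had a coding sequence of 253 codons.

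Totals of counts on genes were between 53688512 and 71364561 per sample. All 5 WT cortices had Xist (147 to 422 CPM, counts scaled to library size) and no count of the Y-linked Ddx3y, whereas the 12 other cortices had Ddx3y at 49.7 to 79.9 CPM and Xist at 6.06 CPM or less. A list of 8 genes that are higher in male kidney summed to 17.5 to 19.8 CPM in WT cortices and to 1230 to 3816 CPM in the others. A list of 4 genes that are higher in female kidney summed to 280 to 576 CPM in WT and 20.5 to 107 CPM in the others. These lists hold Slc7a13, Slc22a30, Slc7a12, Slc22a29 and Slc17a2, which the study had named as changed between GCERAd and WT cortices. The split of these genes between GCERAd and WT was thus known beforehand. Genotype and this sex pattern therefore cannot be told apart in any comparison with WT; GCERAdT over TRACK and GCERAdT over GCERAd lie within the same pattern. The libraries were also of different kinds by their share of counts on processed pseudogenes: it was under 0.05% in 8 libraries (kind A: WT 1, 3, 4 and 5, GCERAd 1 and 2, GCERAdT 1 and 2) and above it in 9 (kind B: WT 2, GCERAd 3 to 5, TRACK 1 to 3, GCERAdT 3 and 4). Over 167 immunoglobulin and T cell receptor genes, WT 1 and 2 correlated at r = 0.82, GCERAd 2 and 3 at 0.80 and GCERAdT 2 and 3 at 0.94, against 0.49 to 0.75 for the other pairs within a group, and the labels' extraction text gives 3 to 4 mice per cohort. These pairs may be repeat libraries of the same mouse. No pair agreed within sampling noise, but each of these pairs joins a library of kind A with one of kind B. Such a comparison therefore cannot tell repeat libraries from separate mice. In the study's lane summary of its sequencing, some library names recur with a letter added, as repeat libraries would. The summary does not link its names to the labels. All were kept as separate samples, and p-values may be too small. GCERAd 4 and 5 stood apart from GCERAd 1 to 3 in several members, as described further on.

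The labelled gene, Atf4, was lower in GCERAd than in WT cortices (log2 fold change -0.38, standard error 0.11, edgeR adjusted p = 0.0218). The value for GCERAdT over TRACK was 0.17 (standard error 0.11, edgeR adjusted p = 0.367), so the label GCERAdT was not matched by a lower Atf4 count. Counts per gene do not tell its exons apart, and the cortex holds other cells than proximal tubules. In such bulk tissue, fewer cells of a type and less RNA per cell cannot be told apart. The 8 proximal tubule markers, among them Slc34a1, Lrp2 and Miox, all had counts in every group and summed to 16164 to 18251 CPM in WT, 18438 to 20433 in GCERAd, 20372 to 23892 in TRACK and 14947 to 17893 in GCERAdT cortices. Markers of other cell types moved too: the 3 principal cell markers summed to 661 to 760.0 CPM in WT and 216 to 421 CPM in the 12 others, and the 4 tubule injury markers to 8.25 to 11.9 CPM in WT, 11.3 to 19.6 in GCERAd, 35.3 to 71.8 in TRACK and 42.2 to 50.9 in GCERAdT cortices. The 3 distal convoluted tubule markers summed to 511 to 769.7 CPM in WT and 234 to 362 in TRACK, those of endothelium to 159 to 191 and 298 to 330.1, and those of fibroblasts and mural cells to 49.2 to 58.4 and 93.6 to 183. GCERAd and GCERAdT lay at 358 to 539, 187 to 278 and 62.7 to 99.0 CPM for these 3 lists. Their part in the results was not tested.

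The members took 2.64% to 4.20% of all counts, and Gpx3 alone took 86.0% to 88.6% of the counts on members. Per length of transcript, given as FPKM (fragments per kilobase of merged exons, scaled to the library's total), Gpx3 ranked 5 among all genes, with 12594 to 20510.4 FPKM over the 17 cortices. Gpx1 ranked 24 (mean 938 FPKM), Gpx4 91 (335), Gsta2 119 (274) and Gstm1 130 (256). Mgst3 (107 FPKM), Gstm5 (105) and Mgst1 (72.4) followed. In 7 members the group means stayed under 1 FPKM in every group: Gpx2, Gpx5, Gstm3, Gsto2, Gstp2, Gstt4 and Mgst2. Gpx2, the peroxidase of the gut epithelium, had 5 counts in all 17 libraries together, Gpx5, known from the epididymis, had 14, and Gstt4 had 19. The remaining 26 members passed this minimum in at least 1 group and were tested where a group of the comparison passed it.

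**Figure D1:**
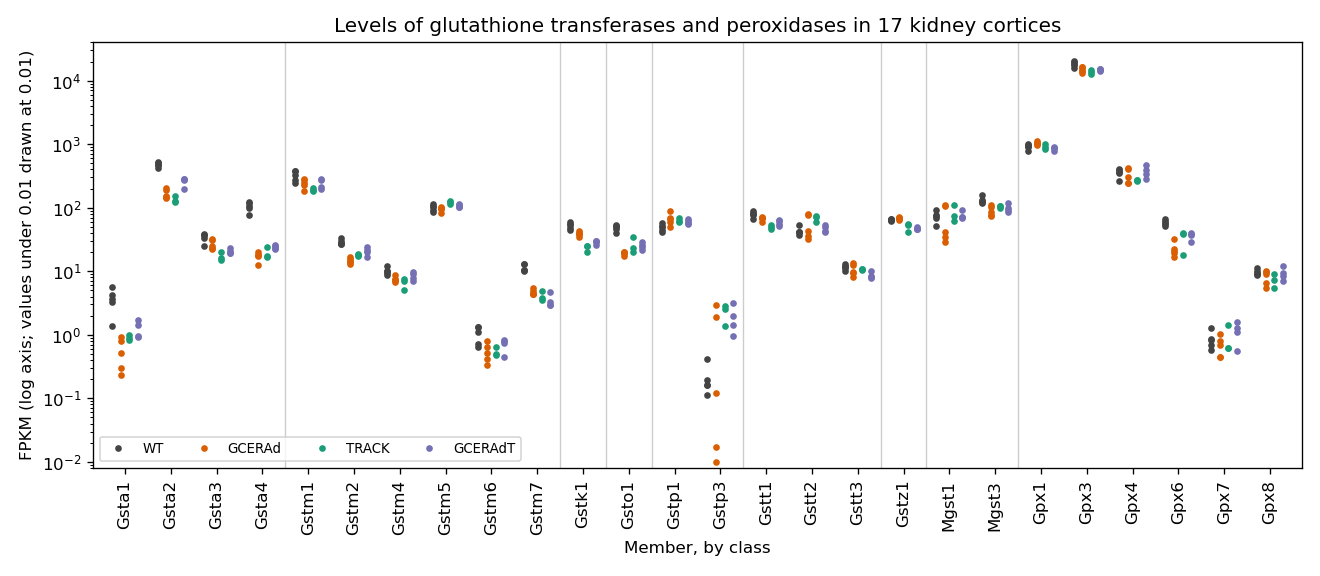
Level of each of the 26 tested members in FPKM on a log axis, 1 point per cortex (WT n = 5, GCERAd n = 5, TRACK n = 3, GCERAdT n = 4), with members ordered by class and classes parted by grey lines. Gpx3 lies above all other members in every cortex, and the WT points of Gsta2 and Gsta4 lie above those of the other groups.

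The alpha class was lower outside WT than in WT. Its 4 genes summed to 617 ± 59.1 FPKM (SD, n = 5) in WT, 213 ± 33.1 (n = 5) in GCERAd, 172 ± 22.9 (n = 3) in TRACK and 306 ± 41.3 (n = 4) in GCERAdT cortices. The lowest WT sum (526 FPKM) lay above the highest of any other group (330 FPKM). The 7 mu class genes summed to 474 ± 62.1, 364 ± 40.8, 342 ± 3.45 and 384 ± 40.4 FPKM in the same order, and the omega class to 48.6 ± 5.60, 19.5 ± 1.05, 26.2 ± 7.86 and 25.4 ± 3.21 FPKM. All 25 transferases together came to 1645 ± 82.8 FPKM in WT, 1059 ± 163 in GCERAd, 995 ± 35.2 in TRACK and 1141 ± 61.3 in GCERAdT cortices. The peroxidases other than Gpx3 came to 1335 ± 89.7, 1393 ± 80.0, 1240 ± 76.0 and 1272 ± 128 FPKM, so their ranges overlapped between all groups. These sums are given without a test, since a few abundant genes set them.

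In GCERAd over WT cortices 25 members were tested and 11 were called, 10 lower and 1 higher (adjusted p no higher than 0.05, Benjamini-Hochberg over all genes tested). Of all 11581 genes, 27.6% were called in this comparison, 13.5% lower and 14.1% higher. The lower members were Gsta1, Gsta2, Gsta4, Gstm2, Gstm4, Gstm7, Gstk1, Gsto1, Mgst3 and Gpx6, and the higher member was Gstp1. By class these were 3 of 4 alpha, 3 of 6 tested mu, the kappa and the tested omega member, 1 of 2 tested microsomal and 1 of 5 tested peroxidases. The fall was 2-fold or more in 6 members, where 2.23% of all genes were called lower at that size. The groups did not overlap in 10 of the 25 members, 9 lower and 1 higher, against 20.2% of all genes. The median log2 fold change was -0.29 over the tested members and -0.00051 over all genes. With GCERAd 4 and 5 left out, 15 members were called, all lower, of which 10 were among the 11, and 30.9% of all genes. These 2 libraries were left out after the values were seen, so adjusted p-values without them, here and below, may be too small.

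In TRACK over WT cortices 21 of 25 tested members were called, 18 lower and 3 higher. The share of all 11967 genes called was 45.6% here, 22.6% lower and 23% higher. The higher members were Gstp1, Gstp3 and Gstt2. The 4 tested members that edgeR did not call were Gpx1, Gstm5, Gstt3 and Mgst1; DESeq2 called 22 members, Gstm5 among them. The change was 2-fold or more in 6 lower members and in 1 higher member, against 3.85% and 6.31% of all genes. In 20 members the groups did not overlap, 17 lower and 3 higher, against 44.3% of all genes. The median log2 fold change was -0.63 over members and -0.010 over all genes. All 3 TRACK libraries were of kind B and 4 of 5 WT libraries of kind A, and with the kind as a covariate 13 of the 21 members stayed called, while 23.2% of all genes were called. The 8 that lost the call were Gsta1, Gstm1, Gstm6, Gstp1, Gstt2, Gstz1, Gpx4 and Gpx8.

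In GCERAdT over TRACK cortices 2 of 25 tested members were called, Gsta2 higher and Gstt2 lower, against 7.09% of all 11928 genes, 2.81% higher and 4.28% lower. The groups did not overlap in 4 members, against 23.1% of all genes; besides these 2 they were Gstk1, higher, and Gstt3, lower. The median log2 fold change was 0.16 over members and 0.014 over all genes.

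Between GCERAdT and GCERAd cortices 9 of 25 members were called, against 19.2% of 11816 genes (9.39% higher, 9.79% lower): Gsta2, Gstm2 and Gpx6 higher and Gsta3, Gstm7, Gstk1, Gstt1, Gstz1 and Gpx1 lower. In 5 of these the groups did not overlap, all lower, against 19.3% of all genes. The median log2 fold change was 0.057 over members and -0.0028 over all genes. The numbers of GCERAd and GCERAdT libraries deviated together, and with the library number as a block 10 members were called, 7 of them among the 9. Under the block the log2 values were 0.57 (adjusted p = 0.0547) for Gsta2 and 0.58 (adjusted p = 0.0679) for Gpx6, which both lost the call, whereas Gsta4, at 0.40 (adjusted p = 0.0303), Gstt3, at -0.34 (adjusted p = 0.0357), and Gstp3, at 3.06 (adjusted p = 0.0456), gained it. Over the 4 comparisons 22 of the 33 members were called at least once, and Gpx7, Gstm5, Gstt3 and Mgst1 were tested without being called by edgeR with all libraries. The comparisons share control groups, so their calls are given side by side and not as support for each other.

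**Figure D2:**
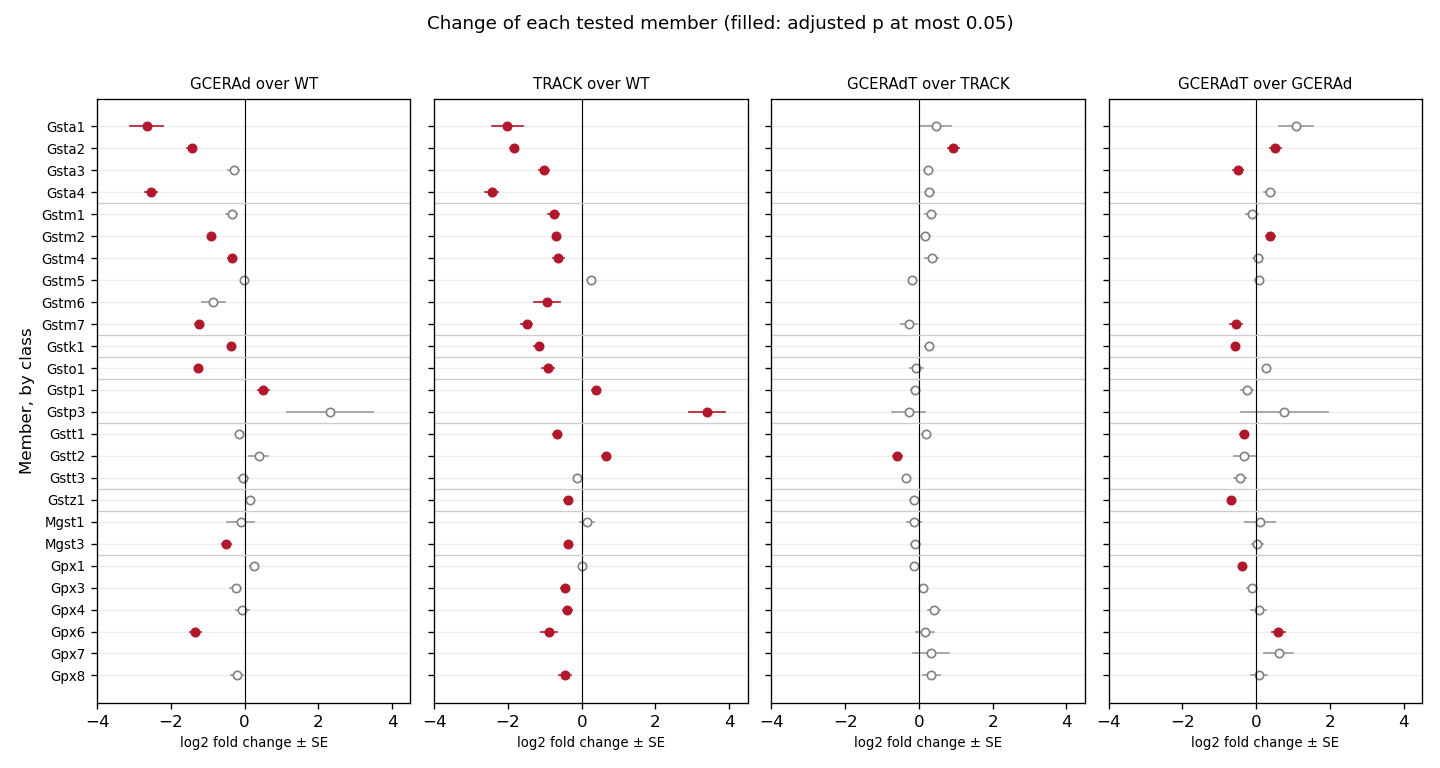
Log2 fold change (point) ± standard error (line) of each tested member in 4 comparisons from edgeR, with filled red points for an adjusted p of at most 0.05 and open points for the rest; a member without a point was under the FPKM minimum in that comparison. Most alpha and mu members lie left of 0 in both comparisons with WT, while in GCERAdT over TRACK only Gsta2 and Gstt2 are filled.

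Gsta2 was the most abundant transferase. It belongs to the alpha class, whose enzymes conjugate electrophiles and reduce lipid hydroperoxides, and lies on the minus strand at chr9:78331018-78355788 in GRCm38. It had 551, 549, 497, 589 and 609 CPM in WT 1 to 5, 169.8, 189, 180.4, 256 and 230.4 in GCERAd 1 to 5, 143, 151 and 173 in TRACK 1 to 3 and 318, 324, 319 and 223 in GCERAdT 1 to 4. Every WT value lay above every other value, and every GCERAdT value above every TRACK value. GCERAdT 4 was lower than GCERAdT 1 to 3 and within the range of GCERAd. The log2 fold change was -1.43 (standard error 0.12, edgeR adjusted p = 7.33e-06) in GCERAd over WT and -1.84 (standard error 0.094, edgeR adjusted p = 8.31e-07) in TRACK over WT, so that the level was 2.701 times and 3.59 times lower. In GCERAdT over TRACK it was 0.94 (standard error 0.14, edgeR adjusted p = 0.00557), or 1.92 times higher, and it stayed called without any single library (0.88 to 1.05, highest adjusted p 0.0315). With libraries of kind B alone, which leaves GCERAdT 3 and 4 against TRACK 1 to 3, it was 0.81 (adjusted p = 0.0625). In GCERAdT over GCERAd it was 0.52 (standard error 0.15, edgeR adjusted p = 0.0374), and this call was lost without any of GCERAd 1, 2 or 3 or GCERAdT 1, 2 or 3 (highest adjusted p 0.107). Of its 51-base stretches, the read length given in the study's methods, 49.0% also occur in other annotated transcripts, mostly of Gsta1. The split of reads between these genes is therefore uncertain.

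Gsta4 prefers 4-hydroxynonenal and other aldehydes from lipid peroxidation. It lies at chr9:78182774-78209349 on the plus strand, next to Gsta1 and Gsta2 on chromosome 9. It had 135, 149, 99.0, 122.9 and 155 CPM in WT, 15.8, 23.7, 22.6, 27.5 and 23.3 in GCERAd, 22.1, 21.2 and 29.5 in TRACK and 27.3, 28.3, 30.7 and 31.1 in GCERAdT cortices. The WT values were more than 3 times any other value, and the other groups overlapped. Both falls from WT were called, at -2.54 (standard error 0.16, edgeR adjusted p = 1.04e-06) for GCERAd and -2.44 (standard error 0.17, edgeR adjusted p = 5.42e-06) for TRACK on the log2 scale, which is 5.81 and 5.44 times lower. It was 0.28 (standard error 0.12, edgeR adjusted p = 0.195) in GCERAdT over TRACK and 0.36 (standard error 0.14, edgeR adjusted p = 0.091) in GCERAdT over GCERAd; the first was called only without TRACK 3, at 0.45 (adjusted p = 0.0299), and the second only without GCERAd 4, at 0.46 (adjusted p = 0.0381), among the fits that left out 1 library. None of the 51-base stretches of Gsta4 occur in another annotated transcript.

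Gsta1, another hydroperoxide-reducing alpha enzyme, was low throughout. It had 3.51, 1.32, 3.11, 5.37 and 3.99 CPM in WT, 0.760, 0.907, 0.224, 0.532 and 0.293 in GCERAd, 0.938, 0.861 and 0.752 in TRACK and 1.56, 1.32, 0.901 and 0.859 in GCERAdT cortices. WT 2 was the lowest WT value and lay within the range of GCERAdT. Both comparisons with WT were called, at -2.65 (standard error 0.45, edgeR adjusted p = 0.00121) for GCERAd and -2.02 (standard error 0.42, edgeR adjusted p = 0.00343) for TRACK on the log2 scale. With the library kind as a covariate the value for TRACK over WT was -0.63 (adjusted p = 0.267). The other comparisons gave 0.46 (standard error 0.40, edgeR adjusted p = 0.511) in GCERAdT over TRACK and 1.08 (standard error 0.46, edgeR adjusted p = 0.132) in GCERAdT over GCERAd. Since 90.3% of its 51-base stretches are shared with other transcripts, 75.4% with Gm3776, its counts rest on a small unique part or on the treatment of shared reads, which was not given in the sources used here.

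Gsta3, the alpha enzyme known in mice for conjugating the aflatoxin epoxide, lies apart at chr1:21240589-21265661. It had 144, 164, 109, 167 and 162 CPM in WT, 99.0, 101, 113, 151 and 139 in GCERAd, 70.8, 65.7 and 83.4 in TRACK and 79.4, 82.1, 97.2 and 86.8 in GCERAdT cortices. TRACK and GCERAdT values lay below all WT and all GCERAd values, and GCERAd 4 and 5 were within the WT range. TRACK was called lower than WT, with -1.02 (standard error 0.15, edgeR adjusted p = 0.000399) on the log2 scale, and the value for GCERAd over WT was -0.29 (standard error 0.15, edgeR adjusted p = 0.164); without GCERAd 4 and 5 the latter was -0.50 (adjusted p = 0.0163). Gsta3 was also lower in GCERAdT than in GCERAd (log2 fold change -0.50, standard error 0.14, edgeR adjusted p = 0.0325), a call that was lost without any of GCERAd 3, 4 or 5 or GCERAdT 1, 2 or 4 (highest adjusted p 0.0924). Its log2 fold change in GCERAdT over TRACK was 0.25 (standard error 0.11, edgeR adjusted p = 0.206).

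**Figure D3:**
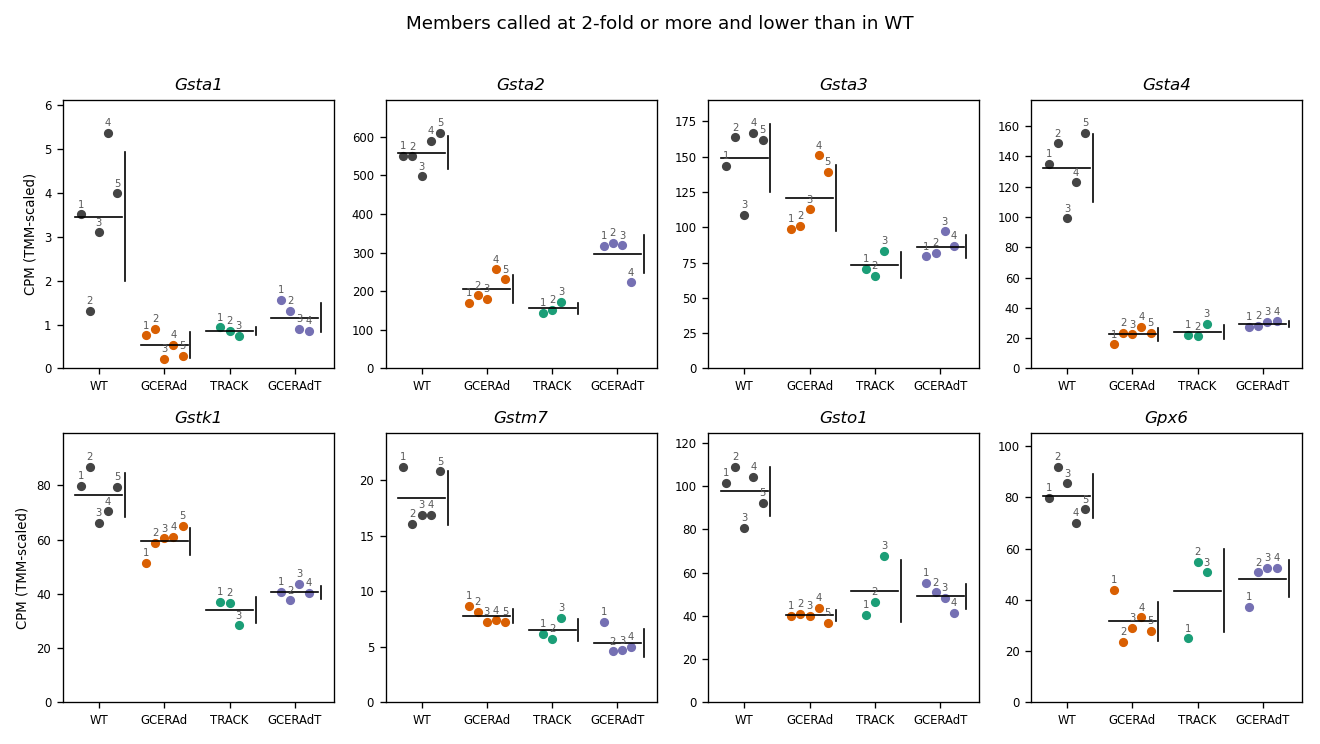
CPM of the 8 members that were at least 2-fold lower in GCERAd or TRACK than in WT cortices, 1 numbered point per library, with the group mean as a horizontal line and the SD as a vertical line; each axis starts at 0. WT points lie above all others in Gsta2, Gsta4, Gstk1, Gstm7, Gsto1 and Gpx6, and WT 2 lies within the other groups in Gsta1.

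The 7 mu class genes form 1 cluster at chr3:107895821-108044894. The largest fall in this class was that of Gstm7, which had 21.2, 16.1, 16.9, 16.9 and 20.8 CPM in WT, 8.68, 8.14, 7.25, 7.37 and 7.26 in GCERAd, 6.18, 5.73 and 7.59 in TRACK and 7.22, 4.59, 4.67 and 4.97 in GCERAdT cortices. No WT value overlapped with another group. Its log2 fold change was -1.23 (standard error 0.10, edgeR adjusted p = 8.21e-06) in GCERAd and -1.49 (standard error 0.14, edgeR adjusted p = 3e-05) in TRACK over WT, -0.54 (standard error 0.15, edgeR adjusted p = 0.0328) in GCERAdT over GCERAd and -0.27 (standard error 0.21, edgeR adjusted p = 0.457) in GCERAdT over TRACK. The call in GCERAdT over GCERAd was lost without any of GCERAd 1 to 4 or GCERAdT 2 to 4 (highest adjusted p 0.0999). Without GCERAdT 1, whose value was above the others of its group, that log2 fold change was -0.72 (adjusted p = 0.00617).

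Gstm2 followed with 44.1 to 55.7 CPM in WT, 22.1 to 28.2 in GCERAd, 29.1 to 31.2 in TRACK and 27.5 to 40.3 in GCERAdT cortices, and log2 fold changes of -0.92 (standard error 0.084, edgeR adjusted p = 1.54e-05) in GCERAd and -0.70 (standard error 0.085, edgeR adjusted p = 0.000164) in TRACK over WT. The call of its rise in GCERAdT over GCERAd, 0.39 (standard error 0.11, edgeR adjusted p = 0.0358), was lost without any of GCERAd 2, 3 or 4 or GCERAdT 1, 2 or 4 (highest adjusted p 0.113). Gstm1, the most abundant mu enzyme, had 363 to 565 CPM in WT, 276 to 430.3 in GCERAd, 265 to 298 in TRACK and 279.7 to 399 in GCERAdT cortices; it was lower in TRACK (log2 fold change -0.76, standard error 0.14, edgeR adjusted p = 0.00187), whereas the value in GCERAd over WT was -0.35 (standard error 0.15, edgeR adjusted p = 0.0995). Gstm4 was lower in both comparisons with WT, at -0.35 (edgeR adjusted p = 0.0318) and -0.63 (edgeR adjusted p = 0.00746), and the call in GCERAd over WT was lost without any of WT 1, 2 or 3 or GCERAd 1, 2, 3 or 5 (highest adjusted p 0.0708). Gstm6, at 1.27 to 2.63 CPM in WT, was called in TRACK over WT (log2 fold change -0.95, standard error 0.35, edgeR adjusted p = 0.0487), but without WT 1 or any TRACK library it was not (highest adjusted p 0.135). Gstm5, which is known from brain and testis and had 108 to 147 CPM in WT and 145 to 165 in TRACK, was called by edgeR in no comparison with all libraries. In TRACK over WT its log2 fold change was 0.25 (standard error 0.10, edgeR adjusted p = 0.0672), and it was called by DESeq2, at 0.26 (adjusted p = 0.0366), with the repeat candidates summed, at 0.27 (adjusted p = 0.0433), and without WT 2, at 0.30 (adjusted p = 0.0225). Of its 51-base stretches 9.36% lie antisense in 4933431E20Rik, and the strand setting of the counting was not given in the sources used here. Gstm3 had at most 0.399 CPM in any library.

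The single kappa gene, Gstk1, encodes a transferase of mitochondria and peroxisomes and lies at chr6:42245935-42250447. It had 79.9, 86.8, 66.2, 70.5 and 79.4 CPM in WT, 51.3, 58.9, 60.4, 61.0 and 65.0 in GCERAd, 37.0, 36.6 and 28.4 in TRACK and 40.8, 37.6, 43.6 and 40.4 in GCERAdT cortices. The order was WT, GCERAd, GCERAdT and TRACK, with no overlap between any neighbouring groups. On the log2 scale Gstk1 differed by -0.35 (standard error 0.090, edgeR adjusted p = 0.0122) in GCERAd over WT, -1.17 (standard error 0.12, edgeR adjusted p = 5.02e-05) in TRACK over WT and -0.56 (standard error 0.084, edgeR adjusted p = 0.00153) in GCERAdT over GCERAd, and these calls stayed without any single library. The value for GCERAdT over TRACK, 0.27 (standard error 0.11, edgeR adjusted p = 0.153), was not called.

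Gsto1, an omega enzyme that reduces dehydroascorbate and mixed disulphides, lies beside Gsto2 at chr19:47854970-47864790. It had 102, 109, 80.9, 105 and 92.3 CPM in WT, 39.9, 41.1, 40.1, 43.9 and 36.7 in GCERAd, 40.6, 46.5 and 67.8 in TRACK and 55.4, 50.9, 48.5 and 41.5 in GCERAdT cortices. WT values lay above all others, and TRACK 3 stood above the rest of the other groups. Its log2 fold change was -1.26 (standard error 0.090, edgeR adjusted p = 2.39e-06) in GCERAd and -0.92 (standard error 0.16, edgeR adjusted p = 0.00147) in TRACK over WT, 0.27 (standard error 0.089, edgeR adjusted p = 0.058) in GCERAdT over GCERAd and -0.066 (standard error 0.17, edgeR adjusted p = 0.84) in GCERAdT over TRACK. Gsto2 had 0.583 to 0.976 CPM in WT and at most 0.990 CPM elsewhere.

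The pi genes lie together at chr19:4035407-4059569. Gstp1, the abundant pi enzyme, had 69.7, 88.6, 63.8, 75.5 and 79.3 CPM in WT, 75.6, 95.2, 104, 146 and 109 in GCERAd, 107, 97.3 and 89.2 in TRACK and 81.5, 87.3, 95.1 and 97.9 in GCERAdT cortices. GCERAd 1 lay within the WT range and GCERAd 4 was the highest. Relative to WT it was called higher in GCERAd (log2 fold change 0.51, standard error 0.15, edgeR adjusted p = 0.0296) and in TRACK (log2 fold change 0.38, standard error 0.11, edgeR adjusted p = 0.0168). The first call was lost without any of WT 1, 3, 4 or 5 or GCERAd 3 or 5 (highest adjusted p 0.0713), and without both GCERAd 4 and 5 it was 0.30 (adjusted p = 0.0948); the second was lost without TRACK 1, at 0.31 (adjusted p = 0.0801). Reads of Gstp1 and Gstp2 are hard to tell apart, since 33.5% of the 51-base stretches of Gstp1 occur in Gstp2 and 54.1% of those of Gstp2 in other transcripts, whereas Gstp3 shares none. Gstp2, under the minimum, had 0.787 to 1.44 CPM in WT and 0.262 to 0.626 in TRACK, and gave -1.36 (standard error 0.46, edgeR adjusted p = 0.0409) as log2 fold change when every gene with counts was fitted.

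Gstp3, a pi gene of low level, had 0.150, 0.376, 0.177, 0.149 and 0.0999 CPM in WT, 0.0155, 0.115, 0, 1.87 and 2.79 in GCERAd, 2.30, 1.25 and 2.48 in TRACK and 1.68, 1.25, 0.851 and 2.81 in GCERAdT cortices. It was near 0 in all WT libraries and in GCERAd 1 to 3, and above 0.8 CPM in GCERAd 4 and 5 and all TRACK and GCERAdT libraries. Gstp3 rose in TRACK over WT by 3.39 (standard error 0.48, edgeR adjusted p = 0.000412) on the log2 scale, or 10.5 times higher. In GCERAd over WT it was 2.32 (standard error 1.17, edgeR adjusted p = 0.165), with a spread set by GCERAd 4 and 5. For GCERAdT over GCERAd the value was 0.77 (standard error 1.18, edgeR adjusted p = 0.699), and 5.18 (adjusted p = 0.00272) when GCERAd 4 and 5 were left out. That exclusion was chosen after the values were seen, so its adjusted p is not an independent test.

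Of the theta genes at chr10:75774115-75837424, Gstt1 and Gstt2 conjugate small halogenated compounds and sulphate esters. Gstt1 had 103 to 135 CPM in WT, 92.3 to 117 in GCERAd, 71.6 to 82.4 in TRACK and 74.0 to 95.2 in GCERAdT cortices. It was lower in TRACK than in WT (log2 fold change -0.68, standard error 0.10, edgeR adjusted p = 0.000405). It was also lower in GCERAdT than in GCERAd (log2 fold change -0.33, standard error 0.10, edgeR adjusted p = 0.042), a call that was lost without any of GCERAd 2 to 5 or GCERAdT 1 to 3 (highest adjusted p 0.115). Gstt2 had 172, 222, 157, 173 and 171 CPM in WT, 133, 157, 185, 345 and 343 in GCERAd, 309, 297 and 241 in TRACK and 167, 169, 217 and 197 in GCERAdT cortices. It was 133 to 173 CPM in the 8 kind A libraries and 185 to 345 CPM in the 9 kind B libraries, without overlap and whatever the group. It was called higher in TRACK over WT (log2 fold change 0.66, standard error 0.12, edgeR adjusted p = 0.00158) and lower in GCERAdT over TRACK (log2 fold change -0.58, standard error 0.12, edgeR adjusted p = 0.0241). With the kind as a covariate these became 0.35 (adjusted p = 0.103) and -0.44 (adjusted p = 0.0866). The call in GCERAdT over TRACK was also lost without any of TRACK 1 or 2 or GCERAdT 1 or 2 (highest adjusted p 0.0924). Gstt3 had 38.6 to 49.5 CPM in WT and 29.1 to 37.3 in GCERAdT and was called by edgeR in no comparison with all libraries. For GCERAdT over TRACK its log2 fold change was -0.34 (standard error 0.094, edgeR adjusted p = 0.0627), and it was called by DESeq2, at -0.34 (adjusted p = 0.0317), under the replicate block and without GCERAdT 4, at -0.42 (adjusted p = 0.0139). For GCERAdT over GCERAd it was -0.43 (standard error 0.16, edgeR adjusted p = 0.0904), and it was called with all 17 samples in 1 fit, under the block and without GCERAd 1, at -0.52 (adjusted p = 0.0308).

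Gstz1, which also serves tyrosine breakdown as maleylacetoacetate isomerase, had 312 to 342 CPM in WT, 352 to 376 in GCERAd, 205 to 281 in TRACK and 220.0 to 240.2 in GCERAdT cortices. All GCERAd values lay above all WT values, though the test of GCERAd over WT gave 0.15 (standard error 0.058, edgeR adjusted p = 0.0759). TRACK and GCERAdT values lay below both. Gstz1 differed on the log2 scale by -0.37 (standard error 0.10, edgeR adjusted p = 0.0121) in TRACK over WT and -0.67 (standard error 0.069, edgeR adjusted p = 0.000125) in GCERAdT over GCERAd, and the latter stayed called without any single library (-0.69 to -0.64).

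Among the membrane-bound transferases, Mgst3 fell from 129 to 173 CPM in WT to 85.1 to 128 in GCERAd (log2 fold change -0.50, standard error 0.13, edgeR adjusted p = 0.013) and 109.6 to 115 in TRACK cortices (log2 fold change -0.36, standard error 0.10, edgeR adjusted p = 0.0113). Mgst1, of the endoplasmic reticulum and outer mitochondrial membrane, had 147, 186, 105, 156 and 136 CPM in WT, 58.2, 73.1, 84.2, 225 and 233 in GCERAd, 147, 125 and 214 in TRACK and 131, 141, 179 and 136 in GCERAdT cortices. GCERAd 1 to 3 lay below every other library and GCERAd 4 and 5 above every other library. With all 5 the log2 fold change in GCERAd over WT was -0.11 (standard error 0.37, edgeR adjusted p = 0.858), and with GCERAd 4 and 5 left out it was -1.01 (adjusted p = 0.00165). The value for GCERAdT over GCERAd was 0.11 (standard error 0.40, edgeR adjusted p = 0.885), and 1.03 (adjusted p = 0.00085) without these libraries. GCERAd 4 and 5 were left out after their values were seen to lie apart, so neither adjusted p without them is an independent test. Mgst2 had at most 0.334 CPM.

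**Figure D4:**
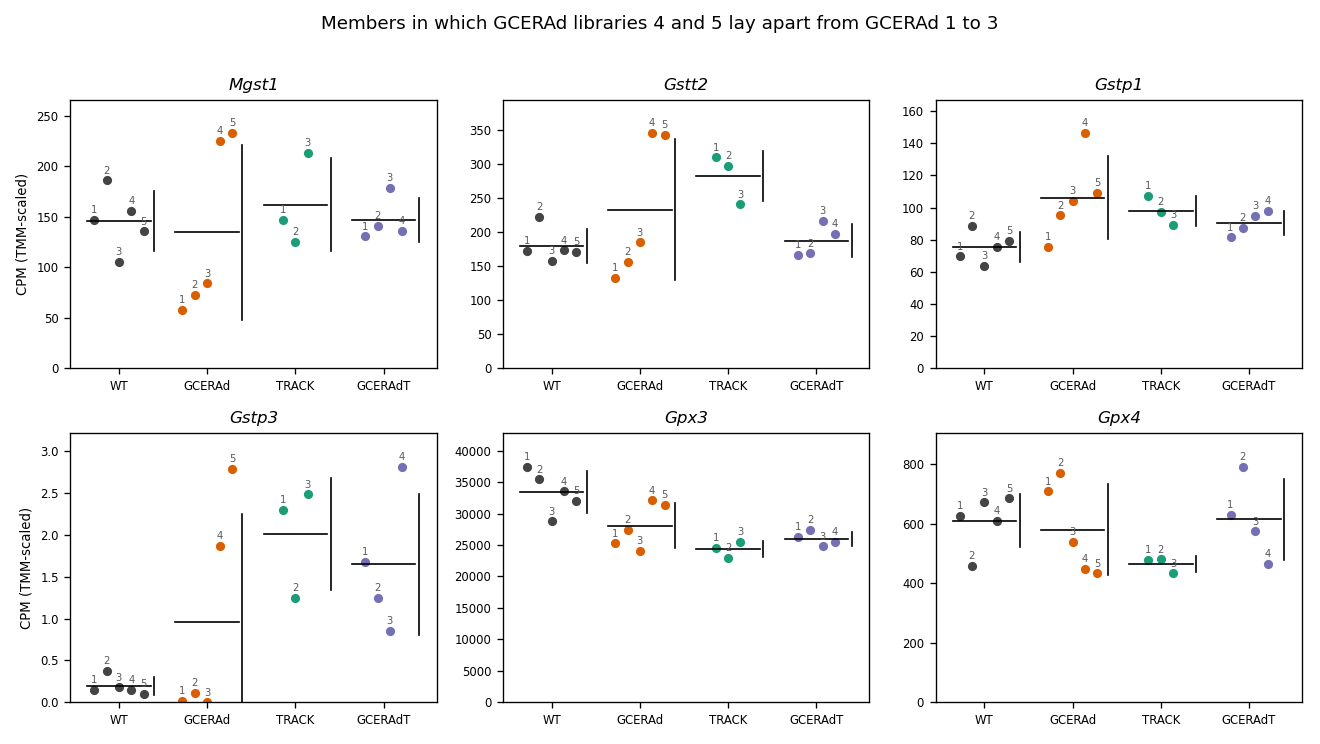
CPM of 6 of the members in which both GCERAd 4 and 5 lay on the same side of GCERAd 1 to 3, 1 numbered point per library. The group mean is a horizontal line and the SD a vertical line (drawn down to 0 where it would be negative), and each axis starts at 0. Members not drawn were split likewise, among them Gsta2, Gsta3, Gstm1, Mgst3 and Gstt3, higher in GCERAd 4 and 5, and Gpx8, lower. Mgst1, Gstt2, Gstp1, Gstp3 and Gpx3 were higher and Gpx4 was lower in GCERAd 4 and 5, and Gpx4 and Gstt2 also separate libraries of kind A from kind B.

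Of the peroxidases, Gpx3, at chr11:54902453-54910377, had 37395, 35457, 28738, 33518 and 32022 CPM in WT, 25240.5, 27379, 24111, 32097 and 31339 in GCERAd, 24541, 22949.5 and 25464 in TRACK and 26276, 27415, 24769 and 25479 in GCERAdT cortices. TRACK and GCERAdT values lay below all WT values, and GCERAd 4 and 5 were above GCERAd 1 to 3 and within the WT range. The log2 fold change was -0.46 (standard error 0.10, edgeR adjusted p = 0.00464) in TRACK over WT, which is 1.37 times lower. It was -0.24 (standard error 0.14, edgeR adjusted p = 0.233) in GCERAd over WT, and -0.37 (adjusted p = 0.0216) without GCERAd 4 and 5. In GCERAdT it was 0.10 (standard error 0.081, edgeR adjusted p = 0.453) over TRACK and -0.12 (standard error 0.13, edgeR adjusted p = 0.578) over GCERAd.

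Gpx1, the cytosolic and mitochondrial peroxidase at chr9:108338903-108340343, had 1328, 1339, 1114, 1369 and 1421 CPM in WT, 1417, 1570.5, 1478, 1576 and 1679 in GCERAd, 1325, 1234 and 1400.2 in TRACK and 1193, 1284, 1214 and 1089 in GCERAdT cortices. GCERAdT values lay below all GCERAd values, and the log2 fold change, -0.38 (standard error 0.093, edgeR adjusted p = 0.0164), stayed called without any single library (-0.42 to -0.34, highest adjusted p 0.0471). With libraries of kind A alone it was -0.26 (adjusted p = 0.0912) and with kind B alone -0.47 (adjusted p = 0.158). In GCERAd over WT it was 0.24 (standard error 0.089, edgeR adjusted p = 0.0617), and DESeq2, at 0.25 (adjusted p = 0.0113), and the fit of all 17 samples, at 0.24 (adjusted p = 0.0348), called it. It was 0.0077 (standard error 0.088, edgeR adjusted p = 0.95) in TRACK over WT and -0.13 (standard error 0.090, edgeR adjusted p = 0.389) in GCERAdT over TRACK.

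Gpx4, which reduces phospholipid hydroperoxides in membranes and restrains ferroptosis, lies at chr10:80047166-80056439. It had 626, 458, 672, 609.7 and 685 CPM in WT, 709, 769.8, 539, 448 and 433 in GCERAd, 477, 480.2 and 433 in TRACK and 628, 790.0, 575 and 465 in GCERAdT cortices. Like Gstt2 it separated the kinds of library, with 610 to 790.0 CPM in all 8 kind A libraries and 433 to 575 CPM in all 9 of kind B. These were the 2 members of 26 with such a separation, against 4.65% of 12208 genes. Of the 51-base stretches of Gpx4, 34.5% occur in the pseudogene Gpx4-ps2. Gpx4 was called lower in TRACK over WT (log2 fold change -0.39, standard error 0.12, edgeR adjusted p = 0.0233), but not without WT 5 or any TRACK library (highest adjusted p 0.0747), and with the kind as a covariate it was 0.018 (adjusted p = 0.918). In the other comparisons it was -0.061 (standard error 0.17, edgeR adjusted p = 0.823) in GCERAd over WT, 0.072 (standard error 0.20, edgeR adjusted p = 0.844) in GCERAdT over GCERAd and 0.42 (standard error 0.16, edgeR adjusted p = 0.138) in GCERAdT over TRACK, where it was called without GCERAdT 4, at 0.53 (adjusted p = 0.0315).

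Gpx6, the cysteine-bearing peroxidase known from the olfactory epithelium, is at chr13:21312125-21319624. It had 79.7, 91.9, 85.5, 70.1 and 75.4 CPM in WT, 44.1, 23.6, 29.1, 33.2 and 27.9 in GCERAd, 25.0, 54.8 and 50.8 in TRACK and 37.4, 50.8, 52.4 and 52.6 in GCERAdT cortices. WT values lay above all others, and TRACK 1 was the lowest of TRACK. Both groups were called lower than WT, GCERAd at -1.34 (standard error 0.15, edgeR adjusted p = 7.73e-05) and TRACK at -0.89 (standard error 0.22, edgeR adjusted p = 0.00812) on the log2 scale. Gpx6 was higher in GCERAdT than in GCERAd (log2 fold change 0.60, standard error 0.17, edgeR adjusted p = 0.0328), a call that was lost without any of GCERAd 2, 3 or 5 or GCERAdT 2, 3 or 4 (highest adjusted p 0.0873), and its log2 value for GCERAdT over TRACK was 0.16 (standard error 0.24, edgeR adjusted p = 0.718). Gpx8, of the endoplasmic reticulum, had 9.24 to 11.9 CPM in WT and 5.69 to 8.96 in TRACK (log2 fold change -0.45, standard error 0.16, edgeR adjusted p = 0.0398), a call that was lost without any of WT 1 to 4 or TRACK 1 or 2 (highest adjusted p 0.15). Gpx7, also of the endoplasmic reticulum, had 0.732 to 1.64 CPM in WT and was called by edgeR in no comparison.

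Whether the effect of the ATF4 KO label differed between the TRACK and the WT background was tested as the difference between both log2 fold changes (GCERAdT over TRACK minus GCERAd over WT) with all 17 samples. In this test 13 of 26 members were called, 10 with a higher and 3 with a lower value in the TRACK background, against 25.1% of 12208 genes (12.3% higher, 12.8% lower). The largest differences were those of Gsta1 (log2 difference 3.11, standard error 0.64, edgeR adjusted p = 0.00225), Gsta4 (log2 difference 2.82, standard error 0.23, edgeR adjusted p = 2.73e-07), Gsta2 (log2 difference 2.38, standard error 0.20, edgeR adjusted p = 3.46e-07), Gpx6 (log2 difference 1.50, standard error 0.30, edgeR adjusted p = 0.00183) and Gsto1 (log2 difference 1.20, standard error 0.19, edgeR adjusted p = 0.000326). Gsta2 was called lower in GCERAd over WT and higher in GCERAdT over TRACK, whereas the other 4 were called in the first of these contrasts and not in the second. The lower 3 were Gstt2 (log2 difference -0.97, standard error 0.35, edgeR adjusted p = 0.0494), Gstp1 (log2 difference -0.61, standard error 0.21, edgeR adjusted p = 0.0431) and Gpx1 (log2 difference -0.37, standard error 0.12, edgeR adjusted p = 0.0359), and each of these lost its call without GCERAd 4 or without GCERAd 5 (highest adjusted p over single libraries 0.113, 0.117 and 0.0761). Of the higher members, Gstm1 lost its call without any of WT 1, 3 or 5, GCERAd 1 or 3, TRACK 1 to 3 or GCERAdT 1 or 2 (highest adjusted p 0.0851), and Gstm4 without TRACK 3, at 0.53 (adjusted p = 0.0597). The median difference was 0.54 over members and 0.019 over all genes. This contrast also holds the sex pattern, since its WT samples alone had Xist at over 100 CPM.

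Of 3 genes that act on the conjugates, Nat8, the cysteine-conjugate acetyltransferase, and Acy3, the aminoacylase that cleaves mercapturates, were higher and Acy1 lower in GCERAd over WT, with log2 fold changes of 2.44 (edgeR adjusted p = 1.76e-05), 1.69 (edgeR adjusted p = 0.000502) and -0.60 (edgeR adjusted p = 0.0364). The same 3 were 2.31 (edgeR adjusted p = 1.37e-05), 1.15 (edgeR adjusted p = 0.00152) and -1.02 (edgeR adjusted p = 0.0217) in TRACK over WT. Acy3 and Acy1 were lower in GCERAdT over GCERAd, at -1.08 (edgeR adjusted p = 0.0115) and -0.74 (edgeR adjusted p = 0.00224). None of the 3 was called in GCERAdT over TRACK by edgeR, where 1 had an unadjusted p under 0.05 and DESeq2 called 1.

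Of 21 genes of glutathione synthesis, breakdown and transport, 17 were tested in GCERAd over WT, and 8 were higher and 3 lower. Those with the largest change were the exporter Abcc4 (log2 fold change -1.05, edgeR adjusted p = 0.00606), the aminopeptidase Lap3 (log2 fold change 1.01, edgeR adjusted p = 1.62e-05), the conjugate exporter Abcc2 (log2 fold change 0.67, edgeR adjusted p = 0.00286) and gamma-glutamyltransferase Ggt1 (log2 fold change 0.67, edgeR adjusted p = 0.00107), whose promoter drives the CreER transgene. For TRACK over WT 8 were higher and 2 lower of 18, led by the glutathione-degrading Chac1 (log2 fold change 3.57, edgeR adjusted p = 0.000648), Abcc4 (log2 fold change -1.32, edgeR adjusted p = 0.00022), Ggt6 (log2 fold change -0.90, edgeR adjusted p = 0.00128) and Oplah (log2 fold change 0.84, edgeR adjusted p = 9.13e-05). In GCERAdT over TRACK 1 was higher, Abcc4 (log2 fold change 0.60, edgeR adjusted p = 0.0168), and 1 lower, Chac1 (log2 fold change -1.16, edgeR adjusted p = 0.0436), of 18. Between GCERAdT and GCERAd 2 were higher and 4 lower of 17, led by Abcc1 (log2 fold change 0.66, edgeR adjusted p = 0.00138) and Lap3 (log2 fold change -0.64, edgeR adjusted p = 0.000788). The glutamate-cysteine ligase catalytic subunit, Gclc, which makes the rate-limiting step of synthesis, was higher in GCERAd (log2 fold change 0.31, edgeR adjusted p = 0.0319) and TRACK over WT (log2 fold change 0.63, edgeR adjusted p = 0.000112) and in GCERAdT over GCERAd (log2 fold change 0.39, edgeR adjusted p = 0.0326). The median log2 fold change of this list was 0.31, 0.28, -0.0054 and -0.13 in GCERAd over WT, TRACK over WT, GCERAdT over TRACK and GCERAdT over GCERAd. In the same order, 27.6%, 45.6%, 7.09% and 19.2% of all genes were called.

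Of 12 genes of selenoprotein synthesis and selenium supply, 11 were tested. In GCERAd over WT 6 were higher and none lower, led by Selenop, the plasma selenium carrier (log2 fold change 1.07, edgeR adjusted p = 6.89e-06), and Sephs2, which makes selenophosphate (log2 fold change 0.65, edgeR adjusted p = 0.00381). By edgeR, 7 had an unadjusted p under 0.05, and DESeq2 called 6. In TRACK over WT 4 were higher and 2 lower, among them Selenop (log2 fold change 0.60, edgeR adjusted p = 0.000281), Secisbp2l (log2 fold change 0.79, edgeR adjusted p = 1.17e-05) and Lrp2, the receptor that takes up Selenop in the proximal tubule (log2 fold change -0.71, edgeR adjusted p = 0.00239). In turn 4 were lower in GCERAdT over GCERAd, led by Sephs2 (log2 fold change -0.75, edgeR adjusted p = 0.0127) and Selenop (log2 fold change -0.69, edgeR adjusted p = 0.00135). Of these 11 edgeR called none in GCERAdT over TRACK, with 2 at an unadjusted p under 0.05 and 2 called by DESeq2. Of the selenocysteine peroxidases themselves, edgeR called none of Gpx1, Gpx3 and Gpx4 in GCERAd over WT with all libraries, while DESeq2 called Gpx1. The shares of all genes called by edgeR were 27.6% in GCERAd over WT, 45.6% in TRACK over WT, 19.2% in GCERAdT over GCERAd and 7.09% in GCERAdT over TRACK.

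Of 21 other genes of peroxide removal, 4 were higher and 1 lower in GCERAd over WT, with the largest changes in Glrx (log2 fold change 0.54, edgeR adjusted p = 0.0227) and catalase, Cat (log2 fold change 0.53, edgeR adjusted p = 0.0368). For TRACK over WT 5 were higher and 5 lower, led by Prdx6 (log2 fold change 0.56, edgeR adjusted p = 0.000665), Glrx (log2 fold change 0.52, edgeR adjusted p = 0.00478), Glrx3 (log2 fold change -0.45, edgeR adjusted p = 0.011) and Nnt (log2 fold change -0.43, edgeR adjusted p = 0.0011). In GCERAdT over TRACK edgeR called 1, Glrx (log2 fold change -0.51, edgeR adjusted p = 0.0129), with 7 at an unadjusted p under 0.05 and 3 called by DESeq2, and in GCERAdT over GCERAd 1 was higher, Prdx4 (log2 fold change 0.86, edgeR adjusted p = 0.00153), and 4 lower. Of 14 relatives of the members that the rule does not name, the chloride channel-like Clic6 had the largest change in both comparisons with WT, at -3.61 (edgeR adjusted p = 8.03e-06) and -2.98 (edgeR adjusted p = 0.000844). In this list 2 were higher and 1 lower of 12 tested in GCERAd over WT, 3 and 2 of 12 in TRACK over WT, and 1 of 11 was lower in each of the other comparisons. Of 4 genes of the NRF2 axis, which drives many transferases in stressed cells, Hmox1 was higher in GCERAd (log2 fold change 1.30, edgeR adjusted p = 0.00951), and Hmox1 (log2 fold change 2.38, edgeR adjusted p = 2.52e-05), Nqo1 (log2 fold change 0.91, edgeR adjusted p = 6.87e-05) and Keap1 (log2 fold change 0.20, edgeR adjusted p = 0.0242) in TRACK over WT. None of these 4 was called by edgeR in GCERAdT over TRACK (2 at an unadjusted p under 0.05, 1 by DESeq2) or in GCERAdT over GCERAd (1 and 0). Beside the lists of peroxide removal, relatives and the NRF2 axis, edgeR called 27.6% of all genes in GCERAd over WT and 45.6% in TRACK over WT. It called 7.09% in GCERAdT over TRACK and 19.2% in GCERAdT over GCERAd.

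The promoters of the members, 250 bases before to 50 after each start from RefSeq (GRCm38.p6), were searched on both strands for the antioxidant response element core bound by NRF2 (TGACNNNGC), the composite element bound by ATF4 (TGATGNAA) and the HNF1 site of proximal tubule genes (its palindromic consensus). Promoters were found for 31 of 33 members, all but Gsta4 and Gstt2. The NRF2 core occurred in 4 of 31 members (12.9%), against 14.0% of 26994 genes. The ATF4 element occurred in 0 members, against 4.51% of genes, and the HNF1 site in 0, against 0.074%. The 4 matches are shown, 5′ to 3′ along the gene, because these are the members of the family with the core near the start; capitals mark the core.
Gsta3: aactcaggcaTGACATTGCatttttcttc
Gstm5: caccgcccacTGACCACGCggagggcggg
Gstm7: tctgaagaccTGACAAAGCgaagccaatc
Mgst1: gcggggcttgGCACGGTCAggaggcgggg
They lie at chr1:21240454-21240482, chr3:107895802-107895830, chr3:107931725-107931753 (minus strand) and chr6:138140461-138140489, beginning 121, 42, 129 and 56 bases before the start, and that of Mgst1 is in reverse. The 4 genes did not all share a pattern across groups. Gstm7 and Gsta3 were both called lower in TRACK over WT and in GCERAdT over GCERAd. Their calls in GCERAdT over GCERAd were lost without certain single libraries, as given above. Gstm7 was also lower in GCERAd over WT, and edgeR called Gstm5 and Mgst1 in no comparison with all libraries. A match is a string of letters and not a bound site.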

How the data were processed

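The authors sequenced TruSeq Stranded mRNA libraries of 17 kidney cortices (5 WT, 5 GCERAd, 3 TRACK, 4 GCERAdT, grouped by the labels). The study's methods give paired reads of 51 bases. Its lane summary lists more bases per cluster for some libraries than for others, so the length read differed between libraries. It does not link its library names to the labels. The shares of 51-base stretches given above apply only to reads of 51 bases. The deposited table holds counts: per the study's methods and processing notes, the authors demultiplexed with bcl2fastq 2.20, trimmed with Cutadapt, aligned to GRCm38 with STAR and counted reads per gene with HTSeq-count, without normalization. The strand setting, the annotation release and the treatment of shared reads were not given in the sources used here. Members and lists were chosen with earlier results of these data known.

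The tests used edgeR 4.0.16 in R 4.3.3 (TMM scaling, quasi-likelihood test, Benjamini-Hochberg adjustment over all genes tested), 2 groups at a time, and with all 17 samples for the difference between effects. The authors used DESeq2; here DESeq2 1.42.0 was an alternative. Genes were tested at a mean FPKM of at least 1 in either group, with merged exon lengths of GENCODE M21; 360 genes had no length. A gene was called at an adjusted p of at most 0.05, and 2-fold where its log2 fold change was 1 or more in size. CPM values were scaled by TMM over the 17 samples. Values of single libraries are given for members called at 2-fold in a comparison between 2 groups and for the 3 members of highest mean FPKM, and for Gstp1, Gstt2 and Mgst1, added after their values were seen; for lists, up to 4 called genes of largest change, plus Gclc, added likewise.

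Same-numbered GCERAd and GCERAdT libraries deviated together from their group means (r = 0.43, 0.56, 0.52 and 0.39), so their numbers were treated as pairs in a blocked fit; these numbers coincide with the library kind. The procedure was tested on simulated counts with 200 genes changed 2-fold: it recovered 85% of them for GCERAd over WT (11581 genes), 81.5% for GCERAdT over TRACK (11928), 89% for TRACK over WT (11967), 84% for GCERAdT over GCERAd (11816) and 68% for the difference (12208). The simulated libraries were independent and held no repeat pairs, library kinds or sex pattern. The shares recovered therefore do not measure how reliable the calls are here. Depth was 53688512 to 71364561 counts per sample, and a count of 0 still allows up to 3 counts. Alternatives were DESeq2, RLE scaling, other minimums, 1 fit of all samples, the replicate block, the library kind, summed repeat candidates and each library left out; leaving out GCERAd 4 and 5, using 1 kind alone and summing GCERAdT 2 and 3 were added after seeing the data.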

Additional observations from a re-analysis of the deposited data

Results flagged for a closer look

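Single libraries lay apart from the rest of their group by Dixon's criterion in 6 of 78 groups of 4 or 5 libraries examined over 26 members. Chance flags about 1 in 20 such groups. In GCERAdT 1, Gpx6 was 37.4 CPM against 50.8 to 52.6 in the other 3 libraries, Gstm6 was 0.834 against 1.44 to 1.56, and Gstm7 was 7.22 against 4.59 to 4.97. In GCERAdT 4, Gsta2 was 223 CPM against 318 to 324. In WT 2, the only WT library of kind B, Gstp3 was 0.376 CPM against 0.0999 to 0.177, and Gstt2 was 222 CPM against 157 to 173.

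The difference between the effects of the ATF4 KO label in the TRACK and in the WT background passed the test in 13 of 26 members, against 25.1% of all genes. The difference of the log2 fold changes was 3.11 for Gsta1, 2.82 for Gsta4, 2.38 for Gsta2, 1.50 for Gpx6, 1.20 for Gsto1, 1.10 for Gstm2, 0.97 for Gstm7, 0.70 for Gstm4, 0.67 for Gstm1 and 0.63 for Gstk1. It was -0.97 for Gstt2, -0.61 for Gstp1 and -0.37 for Gpx1. Of these, Gstm1 lost the call without any of 10 single libraries, Gstm4 without TRACK 3, and Gstt2, Gstp1 and Gpx1 without any of several, GCERAd 4 and 5 among them. The sex pattern of the WT cortices is part of this contrast and cannot be told apart from it.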

How the results depend on the processing

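With each library left out in turn, 9 to 12 members were called in GCERAd over WT (11 with all), 1 to 4 in GCERAdT over TRACK (2), 17 to 22 in TRACK over WT (21), 3 to 8 in GCERAdT over GCERAd (9) and 9 to 14 in the difference between effects (13). In GCERAdT over GCERAd the lowest counts came without GCERAd 3 or GCERAdT 2 (3 each) and GCERAd 2 (4), and without GCERAdT 1 or 3 (5 each). In GCERAdT over TRACK, 1 was called without TRACK 1, TRACK 2, GCERAdT 1 or GCERAdT 2, and 4 without GCERAdT 4. DESeq2 called 4 members in GCERAdT over TRACK, and 1 fit of all 17 samples and the kind covariate called 1 each. In TRACK over WT, 13 were called with the kind covariate. With the repeat candidates summed, 3 were called in GCERAdT over GCERAd. Libraries of kind B alone, where WT is a single library assumed to vary like the others, gave 3 members in GCERAd over WT, 0 in GCERAdT over TRACK (edgeR, 5 at an unadjusted p under 0.05), 8 in TRACK over WT, 3 in GCERAdT over GCERAd and 3 in the difference; fewer samples enter these fits. TRACK has no library of kind A. Under the replicate block 9, 3, 18, 10 and 11 members were called in the order of the first sentence; outside GCERAdT over GCERAd the numbers did not pair the libraries (r of deviations -0.61 to 0.084). Leaving out GCERAd 4 and 5 gave 15, 9 and 15 in GCERAd over WT, GCERAdT over GCERAd and the difference.

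Of the log2 fold changes of single members under these alternatives, 2151 kept direction and side of the threshold, 204 lost and 66 gained a call in the same direction, and 77 changed sign. Of these 77, 73 were uncalled both ways and 4 were called with or without the alternative. The 4 were Gpx4 in TRACK over WT, at 0.018 with the kind covariate and 0.018 with kind B alone, Mgst1 in the difference, at 0.87 without GCERAd 4 and 5, and Gstm1 in the difference, at -0.014 with kind B alone. Members under the minimum are limited by depth, with at most 944 counts over all 17 libraries.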

Other observations

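Among the 5 GCERAd libraries, GCERAd 1 had 391 counts of Xist (6.06 CPM), while the other 4 had 0 to 4 counts. In the same library Gsta4, Mgst1, Mgst3, Gstt2 and Gstm6 had the lowest values of all 17 libraries, at 15.8, 58.2, 85.1, 133 and 0.667 CPM. This was not particular to GCERAd 1. TRACK 3 had the lowest values of Gstk1, Gstm1, Gstm4 and Gstz1, among others, at 28.4, 265, 8.34 and 205 CPM. A link between Xist and these members was not tested.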
